A study of Mus musculus with 4 samples.

Results

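The glucocorticoid receptor gene Nr3c1, the mineralocorticoid receptor gene Nr3c2 and 7 genes known to be induced by glucocorticoids, Fkbp5, Tsc22d3, Zbtb16, Sgk1, Ddit4, Klf9 and Klf15, were followed in mouse heart. The 9 genes were chosen by symbol, and each was listed on a single row among 23238 symbols. Heart RNA of male CDF1 mice was measured by QuantSeq, a 3′ mRNA sequencing method that gives about one read per transcript, with 1 library for each of 4 groups. The normal control E-&T- had neither exercise nor tumor cells, the normal exercise group E+&T- ran on a treadmill at high intensity, the cancer control E-&T+ received CT26 mouse colorectal cancer cells by the tail vein, and the cancer exercise group E+&T+ had both. The labels give 10 mice per group and the age as postnatal day 28, which is about the age at purchase in the methods, and tissue was taken later, at the end of the experiment. The muscle samples were described as from a representative mouse per group and the heart analysis as similar, without stating whether a heart library holds 1 heart or a pool. The cancer model is thus a single injected cell line that seeds through the blood, set against mice of the same strain. With 1 library per group there is no replicate check and no test of a condition, and every difference below is a difference between libraries.

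Glucocorticoids enter the cell and bind the glucocorticoid receptor, which is held ready in the cytoplasm by the Hsp90 chaperone machinery, moves to the nucleus and switches genes on or off. The mineralocorticoid receptor binds aldosterone and, in heart muscle cells that lack the protecting enzyme Hsd11b2, mostly glucocorticoid. Activated receptor pairs bind a palindrome made of a pair of AGAACA half-sites, and the genes induced in this way include brakes on the receptor itself (Fkbp5), on inflammation (Tsc22d3) and on growth signalling (Ddit4).

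The sequences before 3 transcription starts are shown because they differ in the receptor motif while their genes were all higher in the cancer control heart. Each is the 250 bases before a RefSeq start on GRCm38.p6, written 5′ to 3′ on the strand of the gene, and capitals mark the half-site AGAACA or its reverse complement TGTTCT.
Sgk1, the fifth of its listed starts, chr10:21993640-21993889, plus strand: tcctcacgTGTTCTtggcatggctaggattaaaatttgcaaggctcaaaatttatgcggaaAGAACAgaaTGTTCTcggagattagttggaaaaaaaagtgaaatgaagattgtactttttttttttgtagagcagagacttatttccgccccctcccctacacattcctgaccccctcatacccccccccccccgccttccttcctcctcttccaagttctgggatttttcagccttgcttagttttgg
Tsc22d3, the third of its listed starts, chrX:140600523-140600772, minus strand: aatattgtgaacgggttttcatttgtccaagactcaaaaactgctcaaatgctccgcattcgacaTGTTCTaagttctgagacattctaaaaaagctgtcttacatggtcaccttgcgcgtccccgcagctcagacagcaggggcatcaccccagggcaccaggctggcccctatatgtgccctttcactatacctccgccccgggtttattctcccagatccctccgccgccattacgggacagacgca
Fkbp5, its single listed start, chr17:28486150-28486399, minus strand: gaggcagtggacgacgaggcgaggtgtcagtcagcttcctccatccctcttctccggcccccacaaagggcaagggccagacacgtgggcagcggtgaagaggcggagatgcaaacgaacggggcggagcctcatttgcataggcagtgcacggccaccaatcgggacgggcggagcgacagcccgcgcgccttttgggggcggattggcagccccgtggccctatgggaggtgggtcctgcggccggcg
On the same build Sgk1 spans chr10:21882184-21999903, Tsc22d3 chrX:140539528-140600522 and Fkbp5 chr17:28398753-28486149. Zbtb16 lies at chr9:48651797-48836225, Ddit4 at chr10:59949675-59951770, Klf9 at chr19:23141226-23168129, Klf15 at chr6:90461043-90491803 and Nr3c2 at chr8:76898083-77245012.
The Sgk1 sequence holds the full palindrome, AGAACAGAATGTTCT, at bases −189 to −175 from the start, and a further half-site at −242 to −237. The Tsc22d3 sequence holds 1 half-site at −185 to −180, and the Fkbp5 sequence holds none. Windows of 300 bases, 250 before and 50 after a start, were listed for 7 of the 9 genes, in 14 windows, and not for Nr3c1 and Zbtb16. The palindrome, AGAACA and TGTTCT with any 3 bases between them, reads alike on both strands and was present in 3 of all 32851 windows, or 0.00913%, and among these genes in Sgk1 alone. Of the 6 windows of Sgk1 only the one shown held it, and which start was used in these hearts was not tested. The half-site AGAACA on either strand, which the palindrome contains, was present in 19% of all windows and in 4 of the 14, 3 of them among the 6 windows of Sgk1. Counted by gene it was present in 21.3% of all genes and in 2 of the 7. A match is a description of the letters, and the windows of Ddit4, Klf9, Klf15 and Nr3c2 held no half-site within these bounds.

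In the hearts without exercise, cancer was accompanied by rises of 5 of the 7 target genes. Sgk1 rose 4.67-fold, Fkbp5 4.66-fold, Ddit4 4.32-fold, Klf9 2.48-fold and Klf15 2.25-fold, while Nr3c1 was at 0.502 of its control level. Tsc22d3, with a log2 fold change of 0.67, did not reach 2-fold, and Zbtb16 (0.18) was within counting error. In the exercised hearts, cancer was accompanied by a rise of Sgk1 (4.55-fold), Zbtb16 (3.10-fold) and Fkbp5 (2.40-fold), and Klf15 stayed within counting error. Exercise itself was accompanied by a fall of Zbtb16 to 0.445 of its level in normal mice, and of Klf15 to 0.366 in mice with cancer. A rise or fall here means a fold change of 2 or more, given that either library of the pair reached 4 normalized reads.

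Of the 9 genes, 5 rose and 0 fell with cancer without exercise (E-&T+ vs E-&T-), where 27.6% of 14311 tested genes were called, 14.6% as higher and 13.1% as lower. Their median log2 fold change was 1.17, beside −0.01 for all tested genes. With cancer in exercised mice (E+&T+ vs E+&T-), 3 of the 8 tested rose and 0 fell, where 23.0% of all tested genes were called, 12.0% as higher and 11.1% as lower, with a median of 0.95 beside −0.01. With reads scaled by library totals, this became 1 rise (Sgk1), 2 falls (Nr3c1 and Tsc22d3) and a median of 0.23, with 5.62% of all genes called higher and 35.3% lower. With exercise in normal mice (E+&T- vs E-&T-), 0 of the 9 rose and 1 fell, where 12.3% were called, 5.88% as higher and 6.40% as lower. With exercise in mice with cancer (E+&T+ over E-&T+), 0 of the 8 tested rose and 1 fell, where 19.4% were called, 9.39% as higher and 10.0% as lower. The exercise comparisons thus held 1 call each, a share near that of all genes, and their medians over these genes were 0.06 and −0.08. Each library enters 2 of these comparisons, so those that share a library are not independent.

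**Figure D1:**
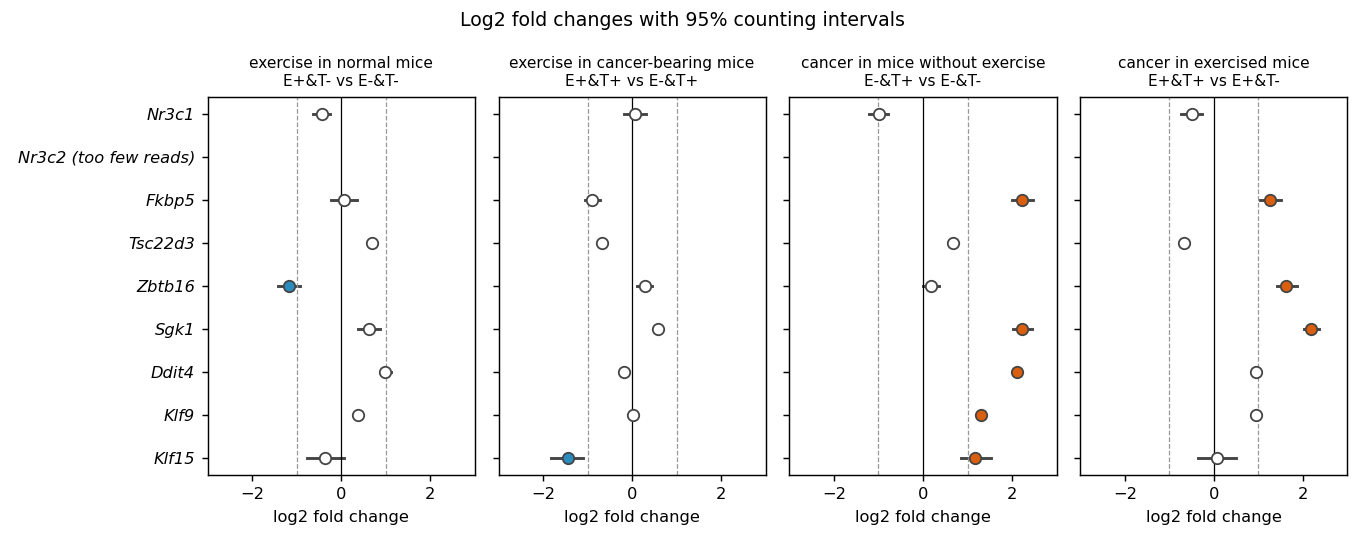
The log2 fold change (horizontal axis) of each gene is plotted in the 4 comparisons with 95% counting intervals, with dashed lines at 2-fold and points past it filled (orange higher, blue lower), and Nr3c2, with at most 4 reads, is not drawn. Sgk1 stood at about 2.2 in both cancer comparisons, whereas Klf15 went from 1.17 without exercise to 0.08 with it.

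The recovered reads ran from 6595407 to 11545921 per library, and 15084 to 15632 symbols had reads. All 6 cardiomyocyte markers had reads in every library, and their summed normalized reads changed by at most 0.23 log2. Single markers moved further and in both directions, such as Actc1 (15.32 in E-&T- and 14.47 in E-&T+) and Ryr2 (12.07 and 12.91). The E+&T+ library stood apart, with 37.3% of its reads from globin genes against 7.86% to 8.76% in the others. When reads were scaled by library totals, the median of all genes moved to −0.60 for exercise in cancer-bearing mice, −0.17 for cancer without exercise and −0.74 for cancer in exercised mice. The shares of genes that rose and fell then became 3.81% and 25.6%, 12.3% and 17.0%, and for the last the values given above. Scaling without the genes over 1% of a library gave 10.2% and 14.5% for cancer in exercised mice, with medians of −0.16 and −0.18 for the cancer comparisons. Neutrophil markers (3 of 4 listed) summed to 119, 76.3, 2983 and 5722 normalized reads in E-&T-, E+&T-, E-&T+ and E+&T+. In the same order adipocyte markers summed to 789, 188, 85.7 and 697, and atrial markers to 14769, 18664, 8867 and 28876. Lung epithelium markers summed to 559, 137, 475 and 1612, so E+&T+ was highest for these and the atrial markers. With cancer without exercise the summed fibroblast markers were 1.03 log2 higher, with 3 of 4 genes higher, and the summed macrophage markers 0.95, with 3 of 5 higher. Brown adipocyte markers were 2.09 higher with cancer in exercised mice, and Ucp1 among them had 814 reads in E+&T+ and 0 in the other libraries. The summed reads of the endothelial, pericyte and lymphocyte lists moved by at most 0.55, 0.24 and 0.67, but single markers moved further, such as endothelial Kdr (11.36 in E-&T- and 9.47 in E-&T+) and the smooth muscle gene Myh11 (8.43 in E-&T- and 9.82 in E+&T-). Of 3 adrenal cortex markers, Cyp11b1 and Cyp11b2 had 0 reads in every library, and the summed level was at most 63.8. The part of these shifts in the changes below was not tested, and in whole heart fewer cells of a type and less RNA per cell cannot be told apart.

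Levels are given as log2 values of the normalized read count plus 1, and each interval is the 95% Clopper-Pearson range of a read ratio, which covers counting error only. The 4 libraries are listed in the order E-&T-, E+&T-, E-&T+ and E+&T+. Nr3c1 was at 9.03, 8.60, 8.04 and 8.10, from 456, 428, 297 and 250 reads. The receptor was thus lowest in the libraries of both cancer groups, which did not differ beyond counting error, and highest in the normal control. Its log2 fold change was −0.99 (−1.21 to −0.78) with cancer without exercise, just inside the 2-fold limit, and −0.50 (−0.73 to −0.27) with cancer in exercised mice. Scaled by library totals, these cancer changes were −1.15 and −1.22, past 2-fold. The exercise change was −0.43 (−0.63 to −0.24) without cancer, while with cancer it was 0.06 (−0.19 to 0.31) and turned negative under both other scalings. Nr3c2 had 4, 3, 4 and 0 reads in the same order. At this depth no difference of the mineralocorticoid receptor was detectable, since the 0 reads of E+&T+ allow up to 3 reads.

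**Figure D2:**
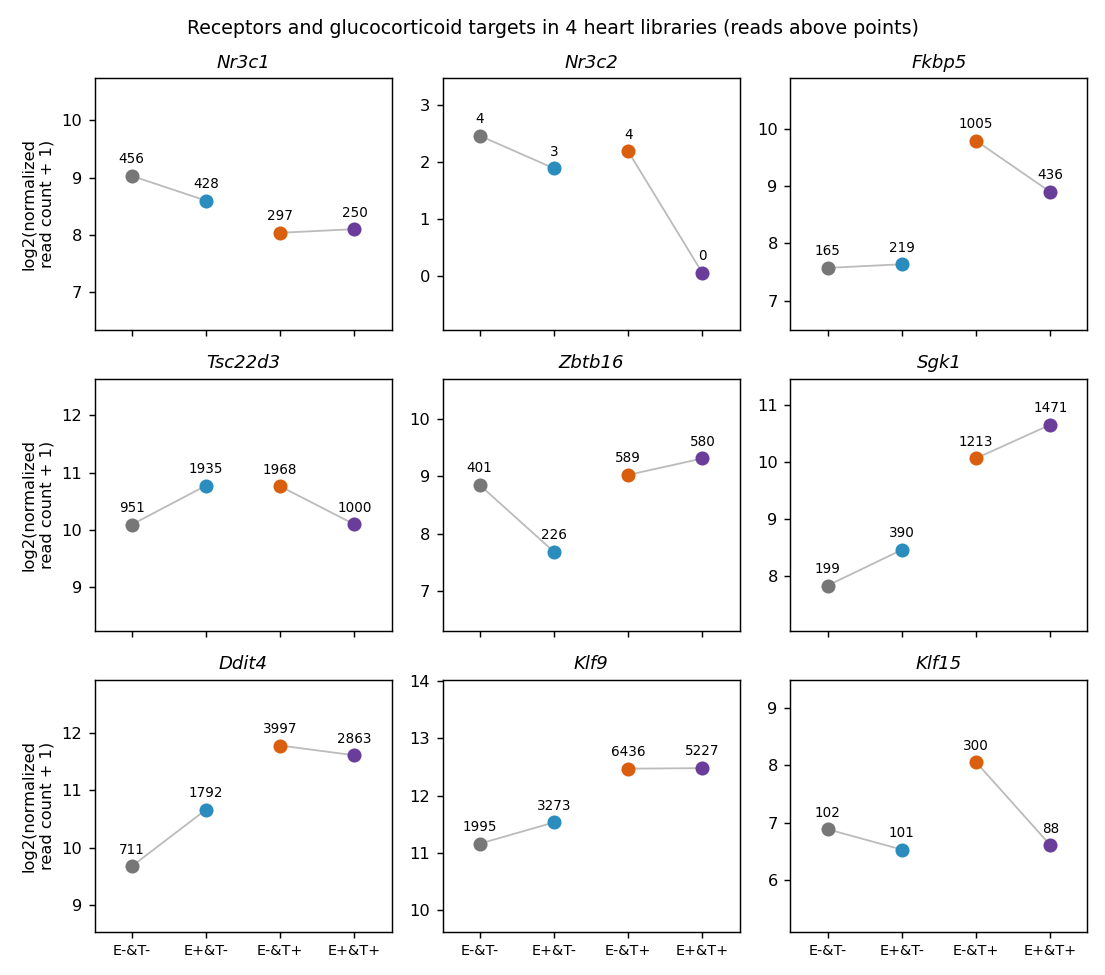
The log2 level of each of the 9 genes (vertical axis) is shown in the 4 libraries, 1 point per library. Fkbp5, Sgk1, Ddit4 and Klf9 were higher in both cancer libraries than in both libraries without cancer, while Nr3c1 was lower in both. Zbtb16 was also higher in both, but E-&T+ and E-&T- did not differ beyond counting error.

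Fkbp5 encodes a co-chaperone of Hsp90 that lowers the affinity of the receptor for its hormone and is induced by the receptor itself. Its log2 levels were 7.57, 7.64, 9.79 and 8.90, from 165, 219, 1005 and 436 reads. The libraries without cancer did not differ beyond counting error, and both cancer libraries were above them. The log2 fold change with cancer was 2.22 (1.99 to 2.48) without exercise, above 95% of tested genes, and 1.26 (1.03 to 1.51) with it. With exercise in cancer-bearing mice Fkbp5 was at 0.538 of its level, a log2 fold change of −0.89 (−1.06 to −0.73) that did not reach 2-fold. Scaled by library totals, this value was −1.48 and the cancer change in exercised mice was 0.55, short of 2-fold.

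Sgk1 encodes a kinase that acts on ion channels and transporters and is a classical target of both receptors. Its log2 levels were 7.84, 8.47, 10.07 and 10.65 in E-&T-, E+&T-, E-&T+ and E+&T+, from 199, 390, 1213 and 1471 reads. Each step in this order was larger than counting error, and the level in E+&T+ was 7.01-fold that in E-&T-. The log2 fold change with cancer was 2.22 (2.01 to 2.45) without exercise and 2.19 (2.03 to 2.35) with it. Exercise was accompanied by differences of 0.62 (0.38 to 0.88) in normal and 0.59 (0.48 to 0.70) in cancer-bearing mice, neither of them 2-fold. Scaled by library totals, the latter was 0.00, while the cancer changes were still above 2-fold.

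Ddit4 encodes an inhibitor of the growth kinase complex mTORC1 and also responds to low oxygen and other stress. Its log2 levels were 9.67, 10.66, 11.78 and 11.61, from 711, 1792, 3997 and 2863 reads, so the normal control was lowest and the cancer control highest. The change with cancer was 2.11 (2.0 to 2.23) without exercise and 0.95 (0.86 to 1.04) with it, the latter just short of 2-fold and 0.23 when scaled by library totals. With exercise in normal mice it was 0.99 (0.87 to 1.12), or 1.99-fold, also just short of the limit. In cancer-bearing mice it was −0.17 (−0.24 to −0.10), in the opposite direction.

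Klf9 and Klf15 encode Kruppel-like transcription factors, and Klf15 is known in heart for promoting the use of fatty acids and amino acids and for restraining hypertrophy. The log2 levels of Klf9 were 11.16, 11.53, 12.47 and 12.48 in the order E-&T-, E+&T-, E-&T+, E+&T+. The cancer libraries differed from each other by 0.01 (−0.04 to 0.06) and were above the others. The change with cancer was 1.31 (1.24 to 1.39) without exercise and 0.95 (0.89 to 1.01) with it, the latter 0.23 when scaled by library totals. Klf15 was at 6.88, 6.53, 8.05 and 6.61 in the same order, from 102, 101, 300 and 88 reads. Only the cancer control stood out for Klf15, and the other libraries did not differ beyond counting error. Klf15 thus rose by 1.17 (0.85 to 1.52) with cancer without exercise and fell by 1.45 with exercise in cancer-bearing mice (interval −1.82 to −1.11).

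Tsc22d3 encodes the leucine zipper protein GILZ, which dampens inflammatory signalling. The levels were 10.09, 10.77, 10.76 and 10.10, from 951, 1935, 1968 and 1000 reads. The libraries with exercise alone and with cancer alone were at the same level within counting error, as were the libraries with neither and with both. Exercise was accompanied by 0.68 (0.57 to 0.80) in normal and −0.67 (−0.78 to −0.56) in cancer-bearing mice. Cancer was accompanied by 0.67 (0.56 to 0.78) without and −0.68 (−0.79 to −0.57) with exercise. None of the 4 values reached 2-fold, though scaled by library totals the 2 negative ones were −1.25 and −1.40.

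Zbtb16 encodes the zinc finger repressor PLZF. Its log2 levels were 8.85, 7.68, 9.02 and 9.31 in E-&T-, E+&T-, E-&T+ and E+&T+, from 401, 226, 589 and 580 reads. The normal exercise library was thus the low one. Zbtb16 fell by 1.17 with exercise in normal mice (interval −1.41 to −0.93) and rose by 1.63 (1.41 to 1.86) with cancer in exercised mice, or 0.91 when scaled by library totals. The cancer change without exercise was 0.18 (−0.01 to 0.36), within counting error.

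**Figure D3:**
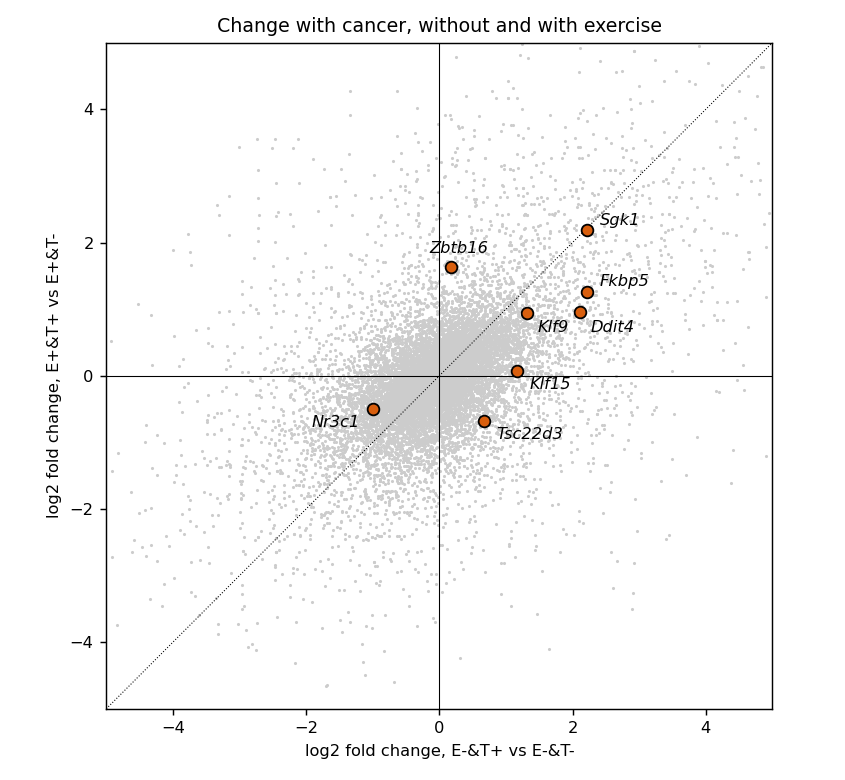
The log2 fold change with cancer in exercised mice (vertical axis) is plotted against that in mice without exercise (horizontal axis) for 13690 genes in grey, with the 9 genes marked where tested; 66 genes lie outside the axes. Sgk1 lies near the diagonal at 2.22 and 2.19, Fkbp5 and Ddit4 lie below it, and Zbtb16 lies above it at 0.18 and 1.63.

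Compared over the 4 libraries after centring each gene on its mean, the pair most alike among the 9 was Ddit4 and Klf9, with a root mean square difference of 0.30 log2. Fkbp5 and Ddit4 differed by 0.43, and Sgk1 and Ddit4 by 0.45. Nr3c1 and Sgk1 differed by 1.53, among the widest. Among 7073 genes whose mean reached 100 normalized reads, those nearest to Fkbp5 were Ctsl, which encodes the lysosomal protease cathepsin L (0.11), and Cfb, which encodes complement factor B (0.11). Those nearest to Klf15 were Man2a1 and Dtx4 (both 0.04), and those nearest to Nr3c1 were Icmt (0.02) and Sco1 (0.03). With only 4 libraries many genes share a pattern, since 412 genes lay within 0.2 of Nr3c1, 28 of Klf15 and 13 of Fkbp5.

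Of 3 other steroid hormone receptors, 1 had enough reads to be tested. The estrogen receptor gene Esr1 had 11, 21, 22 and 7 reads. It fell by 1.23 with exercise in cancer-bearing mice and by 1.20 with cancer in exercised mice, with intervals that ended near 0 (−0.07 and −0.02). Esr2 and Pgr had at most 3 reads in any library.

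Of the genes that make, remove or carry glucocorticoids, Hsd11b1, which regenerates active hormone inside the cell, had log2 levels of 8.24, 7.60, 9.21 and 8.32, highest in the cancer control. Its change with cancer was 0.97 (0.77 to 1.18) without exercise and 0.72 (0.46 to 0.98) with it, neither of them 2-fold. H6pd, which supplies the cofactor of that enzyme, was highest in the same library, at 7.79 against 7.15 to 7.51. Hsd11b2, which inactivates glucocorticoids, and the carrier gene Serpina6 had 0 reads in every library, which allows up to 3 reads each. Of the drug and steroid exporters, Abcb1b rose by 1.24 (0.79 to 1.74) with cancer without exercise, and Abcb1a was highest in the normal control, at 8.72 against 7.74 to 8.17.

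Several of the chaperones that hold the receptor ready stood highest in the normal exercise library. Of 11, 3 rose with exercise in normal mice, beside 5.88% of all genes, and 5 fell with cancer in exercised mice, beside 11.1%, and both comparisons use that library. Hsp90aa1, the inducible Hsp90, was at 11.05, 13.04, 11.35 and 11.72, and Dnaja1, an Hsp40 co-chaperone, at 9.96, 11.34, 9.26 and 9.51. Stip1, which links Hsp70 to Hsp90, was at 8.82, 9.96, 8.64 and 8.53. Fkbp4, the counterpart of Fkbp5 that favours transport of the receptor to the nucleus, was at 11.36, 11.86, 9.91 and 10.51. It fell by 1.45 with cancer without exercise and by 1.36 with it, the opposite direction to Fkbp5 in each. The other calls were falls of Ppid (−1.14) with cancer without exercise and of Hspa8 (−1.24) with cancer in exercised mice, named because they passed.

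Of 11 coregulators, 1 passed in any comparison, where 12.3% to 27.6% of all genes were called. Ppargc1a, a coactivator that drives mitochondrial genes, was at 9.87, 9.75, 8.94 and 10.20. It rose by 1.27 (1.12 to 1.42) with exercise in cancer-bearing mice, where 9.39% of all genes rose. With cancer without exercise the median of the 11 was −0.40, and Med1 (−0.90) and Nrip1 (−0.83) did not pass. Ncoa1 ranged from 6.95 to 7.64.

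Among 29 other genes known to be induced by glucocorticoids, 17 of 28 tested rose and 2 fell with cancer without exercise, with a median of 1.25, beside 14.6% and 13.1% of all genes. With cancer in exercised mice 9 of 27 rose and 1 fell, with a median of 0.48, beside 12.0% and 11.1%. With exercise in normal mice 6 of 27 rose and 3 fell, with a median of 0.09, beside 5.88% and 6.40% of all genes. With exercise in cancer-bearing mice 4 of 28 rose and 5 fell, with a median of −0.04, beside 9.39% and 10.0%. The metal-binding metallothionein gene Mt2 was at 8.51, 9.85, 14.87 and 15.02, and rose 82.6-fold and 36.1-fold with cancer. Lcn2, an iron-sequestering acute-phase gene, was at 4.12, 4.02, 9.96 and 8.65, and Il1r2, the interleukin-1 decoy receptor, had 4, 3, 86 and 113 reads. Neutrophils express Lcn2 and Il1r2, and neutrophil markers were 4.64 log2 higher with cancer without exercise and 6.21 higher with it. Many genes of this list also answer to inflammation and stress, and the part of those signals was not tested.

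Angptl4 and Pdk4 of this list went the other way. Angptl4, an inhibitor of lipoprotein lipase, had 138, 32, 5 and 38 reads, and Pdk4, which blocks pyruvate entry into mitochondria, had 141, 86, 19 and 76. With cancer without exercise they fell by 4.93 and 3.21, the only falls there. With exercise they fell by 2.41 and 1.04 in normal mice and rose by 3.04 and 2.26 in cancer-bearing mice. Adipocytes also express both genes, and adipocyte markers moved by −2.07 and 3.01 in these exercise comparisons and by −3.19 with cancer without exercise. With cancer in exercised mice these markers were 1.89 higher, while Angptl4 (0.52) and Pdk4 (0.10) were not called. The part of adipocytes in the changes of Angptl4 and Pdk4 was not tested. Hif3a, the remaining fall in normal mice, had 4 and 2 reads. In cancer-bearing mice Cdkn1a (1.54) and Lpin1 (1.18) also rose with exercise, and Lcn2 (−1.30), Anxa1 (−1.30), Arrdc2 (−1.38), Arrdc3 (−1.38) and Mertk (5 reads against 0) fell. The single fall with cancer in exercised mice was Bcl6 (−1.19). These genes, Pdk4 included, are named because they passed.

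**Figure D4:**
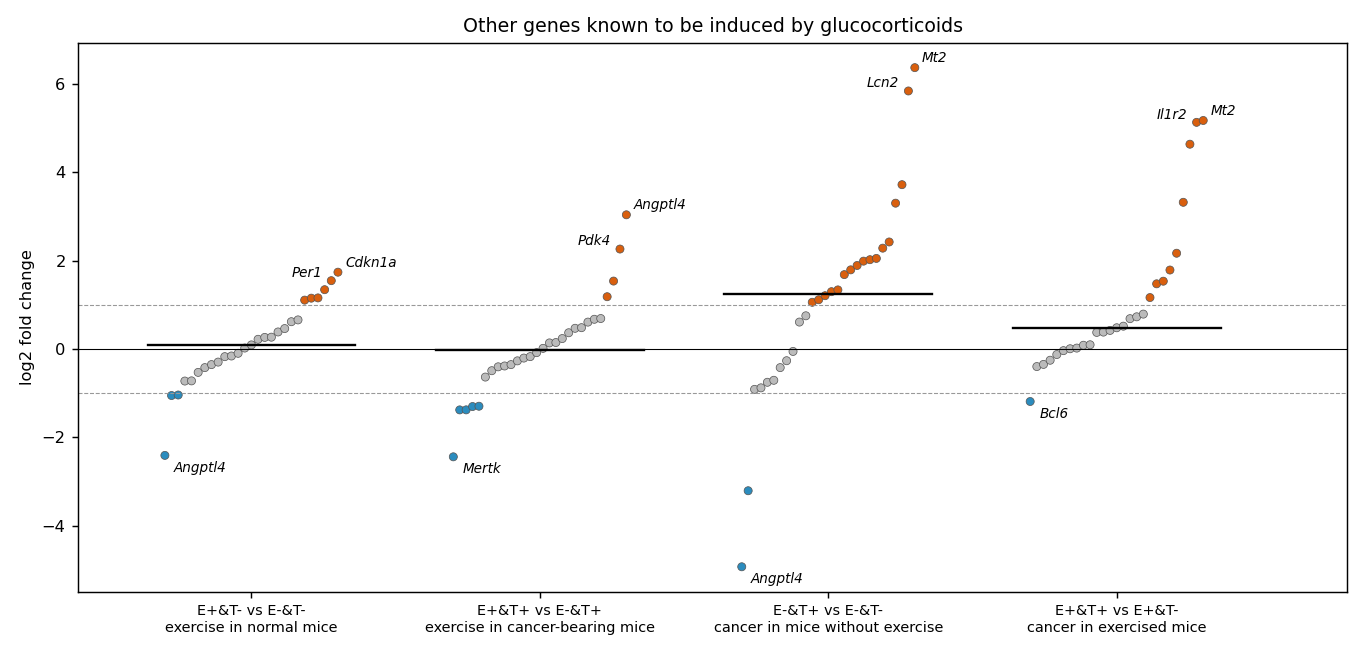
Each point is the log2 fold change (vertical axis) of 1 of the other glucocorticoid-induced genes, sorted within each of the 4 comparisons, with black bars at the medians and dashed lines at 2-fold. The median was 1.25 with cancer without exercise and 0.48 with it, and Mertk, labelled as lowest with exercise in cancer-bearing mice, rests on 5 reads.

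Genes that glucocorticoids are known to repress were not lower in the cancer hearts as a group. Of 6 tested, 4 rose and 1 fell with cancer without exercise, with a median of 1.43, beside 14.6% and 13.1% of all genes. Of 7 tested with cancer in exercised mice, 3 rose and 2 fell, with a median of 0.87, beside 12.0% and 11.1%. The chemokine gene Cxcl1 had 12, 17, 49 and 135 reads, the monocyte chemokine gene Ccl2 15, 32, 165 and 77, and the adhesion gene Icam1 51, 87, 233 and 132. Il1b had 15, 19, 50 and 34. All 4 had more reads in both cancer libraries than in both others. The falls were of Nos2, with 28, 22, 2 and 3 reads, in both cancer comparisons, and of Ptgs2 in exercised mice (−1.62, interval −7.84 to 0.73), named because they passed. Cxcl1 was the only call with exercise, with a rise of 1.75 in cancer-bearing mice, where 9.39% of all genes rose.

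Of 7 tested targets of aldosterone and the mineralocorticoid receptor, 2 rose with cancer without exercise and 3 with cancer in exercised mice, and 0 fell, beside 14.6% and 12.0% of all genes that rose. Lgals3, a fibrosis-linked lectin that macrophages also make, was at 5.69, 6.33, 9.77 and 8.54. It rose by 4.08 (3.68 to 4.58) with cancer without exercise and by 2.21 (1.88 to 2.58) with it. The matrix gene Ctgf was at 10.93, 11.62, 13.40 and 11.26, high in the cancer control alone, and rose by 2.47 with cancer without exercise. The endothelin gene Edn1 rose by 1.01 with cancer in exercised mice. Exercise in cancer-bearing mice was accompanied by falls of Ctgf (−2.15) and Lgals3 (−1.23). The remaining calls were of Scnn1a, named because it passed, with 11, 0, 16 and 13 reads.

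Of 9 genes known as targets of Klf15, 3 fell with cancer without exercise, where Klf15 itself rose and 13.1% of all genes fell. The other 6 did not pass, and Bcat2, Klf3 and Prodh among them were within counting error. Kcnip2, a potassium channel subunit, was at 11.94, 12.09, 10.39 and 11.43, and fell by 1.55 (interval −1.64 to −1.47). Dbt, of branched-chain amino acid breakdown, fell by 1.44 and the transaminase gene Gpt by 1.08. With exercise in cancer-bearing mice, where Klf15 fell, Kcnip2 alone of the 9 passed, with a rise of 1.04, just past the limit. This is near the 9.39% of all genes that rose there. Prodh, which breaks down proline, ranged from 5.99 to 6.52.

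Around Ddit4, of 9 tested genes of the mTORC1 brake, 2 rose and 1 fell with cancer without exercise, near the 27.6% of all genes called there. Eif4ebp1, the translation repressor that mTORC1 switches off, was at 9.97, 9.67, 11.09 and 10.03, and rose by 1.12 there and fell by 1.06 with exercise in cancer-bearing mice. Sesn3 rose by 1.19 and Ddit4l, the paralog of Ddit4, fell by 1.34 from 42 to 21 reads, while Tsc1 ranged from 6.68 to 7.40. Of 4 tested relatives and substrates of Sgk1, 0 were called in any comparison, beside 12.3% to 27.6% of all genes. So few genes cannot set this count apart from those shares. Nedd4 ranged from 9.85 to 10.52, Sgk3 from 6.35 to 6.86, Ndrg1 from 8.53 to 9.11 and Nedd4l, the ubiquitin ligase that Sgk1 restrains, from 7.54 to 8.04.

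Relatives of the Klf and Tsc22 genes went in several directions. Of 11 other Kruppel-like genes, 1 rose and 3 fell with cancer without exercise, Klf5 (1.43) against Klf11 (−1.53), Klf12 (−1.37) and Klf16 (−1.13), beside 14.6% and 13.1% of all genes. With cancer in exercised mice Klf5 rose (1.56) and Klf2 (−1.10) and Klf7 (−1.10) fell, and Klf2 fell with exercise in cancer-bearing mice (−1.08). Klf2 and Klf7 are named because they passed. Of 3 relatives of Tsc22d3, Tsc22d1 was at 11.32, 11.30, 10.32 and 10.82 and fell by 1.0 with cancer without exercise. Tsc22d4 ranged from 8.74 to 9.43 and Tsc22d2 from 6.65 to 7.22.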

How the data were processed

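QuantSeq mRNA-seq data of 4 heart libraries, 1 per group, were analysed. According to the methods and the submitters' processing notes, reads were aligned with Bowtie2 to mm10 and counted with bedtools, and the counts were quantile-normalized with edgeR by the authors. Versions are not given in the sources used here. Each deposited value is the log2 of the normalized read count plus 1, as the authors computed it. The edgeR adjustment maps the counts of each gene to 1 common library size and does not give all libraries the same distribution. It depends on the library sizes used, so it can hide a shift shared by most genes. Whole reads were recovered by inverting this adjustment (fitted dispersion 0.149, with 100% of 24992 values of 5 to 99 normalized reads within 0.1 of a whole read), and the recovery was tested on simulated data. Reads above about 1000 are approximate.

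Python 3.11.15 with matplotlib 3.10.9, numpy 2.4.6, pandas 2.3.3 and scipy 1.17.1 was used. A fold change is a difference of deposited log2 values, with a pseudocount of 1, which understates changes of low genes. A gene was tested where at least 1 of the 2 libraries reached 4 normalized reads, and called at 2-fold. No p-value was computed. Intervals take reads as independent, which PCR copies are not. The design had assumed counts, and the deposited log2 values were used instead.

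The 9 genes, the 12 gene lists and the 13 marker lists were chosen with earlier results of these data known, so they are no independent support. The text names the 9 genes, 3 other steroid receptors, up to 4 genes per list with the largest change (mean of 16 or more normalized reads), the 2 genes nearest in pattern to Nr3c1, Fkbp5 and Klf15, and genes stated as named because they passed. Ctgf was found under its older symbol. Alternatives were other count minimums, another pseudocount, other scalings and subsampled reads. Promoter sequences and coordinates are from RefSeq on GRCm38.p6, the build also called mm10. Muscle and lung data were not analysed here, and some genes of the lists are not reported here and are left out of the lists' counts.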

Additional observations from a re-analysis of the deposited data

Results flagged for a closer look

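Several genes changed in one direction with exercise in normal mice and in the other in cancer-bearing mice, or did so with cancer without and with exercise. Each difference below is the log2 change in cancer-bearing minus normal mice, or in exercised minus unexercised mice. With 1 library per group, no such difference was tested.

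For Tsc22d3 the difference was −1.35 for exercise (0.68 against −0.67) and −1.35 for cancer. For Zbtb16 it was 1.45 for exercise (−1.17 in normal, 0.29 in cancer-bearing mice), and for Ddit4 −1.16 (0.99 against −0.17). The Zbtb16 change in cancer-bearing mice was −0.30 when scaled by library totals. Hsp90aa1 differed by −1.61 for cancer (0.30 without exercise, −1.32 with it).

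Among the listed targets, Angptl4 differed by 5.45 for exercise, from 138, 32, 5 and 38 reads in E-&T-, E+&T-, E-&T+ and E+&T+, and Lgals3 by −1.87. Ctgf differed by −2.83 for exercise and −2.83 for cancer. In a design of 4 libraries the exercise and cancer differences of a gene are the same number by construction, and each depends on the E+&T+ library, of which 37.3% of reads were globin.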

How the results depend on the processing

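There were 34 changes of the 9 genes with a value. Changes of the genes in the lists were not rescaled. Library totals moved the median of all genes to −0.60 for exercise in cancer-bearing mice and −0.74 for cancer in exercised mice. Calls of list genes in these comparisons may thus depend on the scaling, the more so near 2-fold. Other count minimums leave each value as it is, and a pseudocount of 4 cannot turn a sign, so these settings could not test the signs. All 32 changes that remained with reads subsampled to the smallest library kept their sign. Scaled by library totals, 30 of 34 kept it, with Nr3c1 (−0.52), Zbtb16 (−0.30) and Klf9 (−0.58) with exercise in cancer-bearing mice and Klf15 (−0.64) with cancer in exercised mice turning negative. Scaled without the genes over 1% of a library, 31 of 34 kept it. Relative to the median of all genes, 34 of 34 kept it in both. This was nearly fixed in advance, because each scaling moves all genes of a library alike, so it is no further support. The number of the 9 genes called with exercise in cancer-bearing mice went from 1 to 2 without a minimum (Nr3c2, 0 against 4 reads), and to 3 with library totals (Fkbp5 and Tsc22d3). With exercise in normal mice it went from 1 to 2 with subsampled reads (Ddit4, log2 fold change 1.004). With cancer in exercised mice, 3 rises and 0 falls became 1 and 2 with library totals, and 3 and 1 without a minimum. With cancer without exercise, 5 rises and 0 falls became 5 and 1 under both other scalings. With 1 library per group no library could be left out. No paired analysis was possible because each group has 1 library. Nr3c2, Esr2 and Pgr are limited by depth.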
